A study of Mus musculus with 32 samples.

Results

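Acetylation of histone H3 at lysine K9 (H3K9ac) was compared between leukemias with and without *Kat2a*. The 4 H3K9ac chromatin immunoprecipitation (ChIP) libraries, among 16 ChIP libraries with a peak list and 32 samples in the series, were 2 replicates each of *Kat2a* WT and *Kat2a* KO. For each genotype, overlapping peaks of both replicates were merged, and a merged interval that held a peak of each replicate was kept as a consensus region. This left 21458 consensus regions in *Kat2a* WT, out of 38980 merged intervals (55.0%), and 18783 in *Kat2a* KO, out of 33790 (55.6%). 

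Donor animals of both genotypes carried *Kat2a* Fl/Fl on a C57Bl/6 background. KO animals were Mx1-Cre+/- and WT animals lacked Mx1-Cre, a recombinase driven by an interferon-responsive promoter, so that excision occurs wherever that promoter is active. Both genotypes received pIpC, an inducer of interferon, and bone marrow (BM) was taken 4 to 6 weeks later. Lineage-depleted BM was transduced with a retrovirus carrying MLL-AF9 and transplanted into lethally irradiated mice. Terminal leukemic BM of the recipient mice was pooled, from 5 animals for WT and 4 for KO. For each H3K9ac ChIP, 5000000 cells per condition were used. The pools held total BM, and their share of recipient cells is not given. Replicates were separate samples of cells and chromatin from the same pools, so the spread between them, and every p-value here, leaves out the variation between leukemias.

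Kat2a (also called Gcn5) is the histone acetyltransferase subunit of the SAGA and ATAC coactivator complexes and acetylates H3K9. H3K9ac is found over the start sites of active genes and at some enhancers, and it can spread over many kilobases at genes that define a cell type. The MLL-AF9 fusion oncoprotein acts on a small set of such genes, among them the *Hoxa* genes and *Meis1*, that keep leukemia cells in a self-renewing state.

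The sequences below show the kinds of DNA that the results turn on. Each is the forward strand of GRCm38 (mm10), written with every CG dinucleotide in capitals. The first lies inside the WT region over *Meis1*, chr11:19019805-19020104, which was acetylated in both genotypes and was 71.3% GC with 31 CG. The other 4 come from regions that had a peak in both replicates of 1 genotype and none in the other: an intergenic WT region at chr6:51173320-51173619 (48.7% GC, 7 CG), the WT region upstream of *Atp11b* at chr3:35753206-35753505 (42.7% GC, 6 CG), a WT region upstream of *S100a9* at chr3:90695994-90696293 (47.3% GC, 2 CG), and the KO region upstream of *Slc4a1* at chr11:102364457-102364756 (54.3% GC, 3 CG).
Meis1: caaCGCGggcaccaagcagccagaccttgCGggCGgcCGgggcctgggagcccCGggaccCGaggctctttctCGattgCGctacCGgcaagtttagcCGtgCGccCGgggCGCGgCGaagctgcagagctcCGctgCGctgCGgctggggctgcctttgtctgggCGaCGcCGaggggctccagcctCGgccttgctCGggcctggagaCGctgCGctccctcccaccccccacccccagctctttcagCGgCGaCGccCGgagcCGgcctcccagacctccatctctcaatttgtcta
Intergenic, chromosome 6: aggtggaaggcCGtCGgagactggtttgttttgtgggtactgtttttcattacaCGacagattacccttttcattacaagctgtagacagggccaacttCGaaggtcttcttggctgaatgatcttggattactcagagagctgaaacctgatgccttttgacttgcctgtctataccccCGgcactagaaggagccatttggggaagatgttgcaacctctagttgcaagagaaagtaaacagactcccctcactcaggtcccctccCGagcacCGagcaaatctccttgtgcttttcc
Atp11b: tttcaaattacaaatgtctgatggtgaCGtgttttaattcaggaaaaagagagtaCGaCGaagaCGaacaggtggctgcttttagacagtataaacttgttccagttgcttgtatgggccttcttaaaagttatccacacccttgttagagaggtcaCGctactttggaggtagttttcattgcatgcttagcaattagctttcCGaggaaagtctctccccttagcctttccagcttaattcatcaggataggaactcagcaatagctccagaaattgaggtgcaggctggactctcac
S100a9: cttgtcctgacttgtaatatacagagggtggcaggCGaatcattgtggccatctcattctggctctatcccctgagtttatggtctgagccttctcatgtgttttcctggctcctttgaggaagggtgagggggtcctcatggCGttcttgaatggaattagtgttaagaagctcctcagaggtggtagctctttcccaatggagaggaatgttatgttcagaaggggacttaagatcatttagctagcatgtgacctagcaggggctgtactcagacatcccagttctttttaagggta
Slc4a1: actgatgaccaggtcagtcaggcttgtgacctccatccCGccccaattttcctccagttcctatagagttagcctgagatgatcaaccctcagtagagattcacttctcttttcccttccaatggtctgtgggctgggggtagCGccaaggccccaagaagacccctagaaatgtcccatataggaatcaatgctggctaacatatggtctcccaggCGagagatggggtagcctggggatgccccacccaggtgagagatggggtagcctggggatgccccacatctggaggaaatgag

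Before the comparisons, the libraries were examined for differences that the genotype does not describe. The lists held 33605 and 31677 peaks in WT and 27657 and 28861 in KO. KO replicate 1 had the fewest peaks and the least covered length, and replicate 2 had the wider peaks in both genotypes. Depth is unknown because the lists hold no read counts, so "no peak" means that none was listed and not that H3K9ac was absent. Differences in the share of a cell type and in acetylation per cell cannot be told apart in pooled BM.

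The pools also differed at sex-linked genes. *Kdm5d*, *Eif2s3y* and *Ddx3y*, on chromosome Y, had a promoter peak in both KO libraries and in neither WT library. *Uty* had a fold enrichment of 3.62 in WT replicate 1, none in WT replicate 2, and 7.75 and 9.62 in KO. *Xist*, the RNA of the inactive X chromosome, had 8.60 and 14.3 in WT, none in KO replicate 1 and 2.97 in KO replicate 2. Without chromosomes X and Y there were 21008 WT and 18372 KO consensus regions, 178 and 86 of them of 5 kb or more, 134 and 23 of these in pieces in the other genotype, and 299 and 82 genes with a promoter region that had no peak of the other genotype, by the definitions below.

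Markers were read at promoters, taken as 1 kb upstream to 500 bp downstream of an annotated start site. Of 12 myeloid markers, 12 had a promoter peak in WT replicate 1, WT replicate 2 and KO replicate 2, and 10 in KO replicate 1, where *Elane* and *Mpo* had none. Of 8 B cell markers, 1 or 2 had a peak in each library, and of 8 T cell markers 2 did. *Pax5* and *Cd3e* had none in any library, but *Cd79b*, *Cd3d* and *Lck* each had a promoter region with a peak in all 4. That of *Cd3d* had fold enrichments of 11.0 and 10.6 in WT and 7.73 and 11.1 in KO. Of 8 erythroid markers, 3 and 1 had a peak in WT and 3 and 5 in KO. *Gata1* and *Hbb-bt* had none in any library. A region at the *Klf1* promoter held a peak of all 4 libraries, with 5.01 and 8.46 in WT and 9.80 and 8.64 in KO. Of 6 megakaryocyte markers 3 and of 9 endothelial and stromal markers 2 had a peak in each library. The promoter of *Kat2a* held 2 regions with a peak in all 4 libraries, of fold enrichment 8.0 and 4.58 in WT against 7.48 and 11.8 in KO for the first, and 4.03 and 5.23 against 5.88 and 5.99 for the second. The promoter lies outside the excised part of the gene, so this does not check the deletion.

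**Figure D1:**
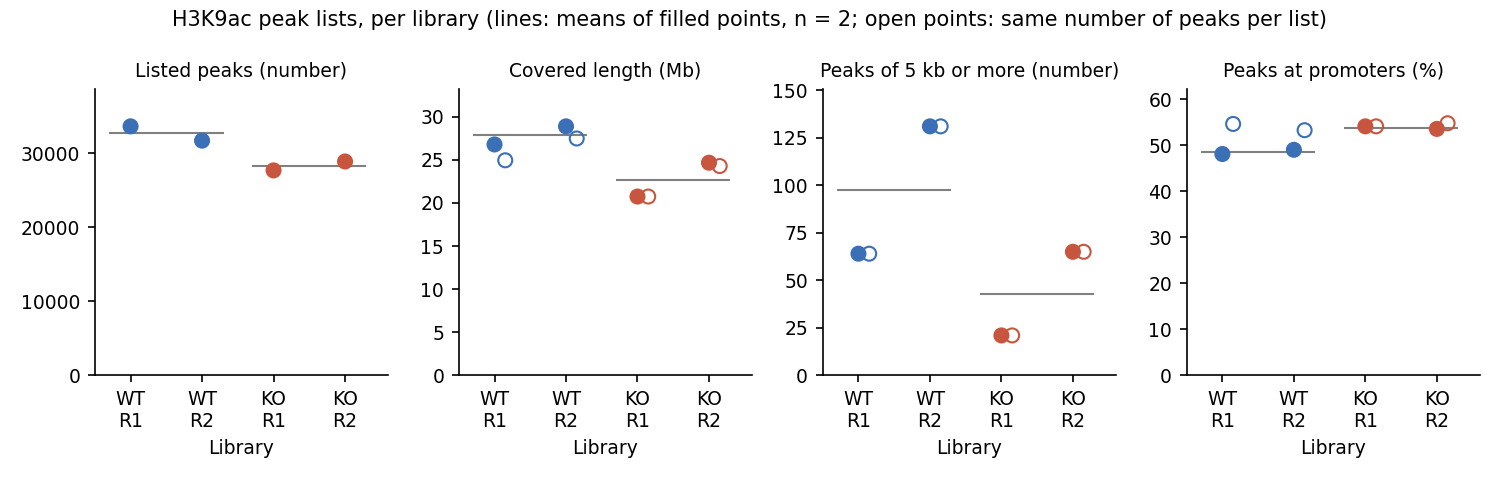
Number of listed H3K9ac peaks, covered length in Mb, number of peaks of 5 kb or more and share of peaks at promoters in %, for each of the 4 libraries. Filled points use all listed peaks, open points the 27657 most significant of each list, and lines are genotype means of the filled points (n = 2); covered length lay lower in both KO libraries, whereas peaks of 5 kb or more overlapped between the genotypes (64 in WT replicate 1, 65 in KO replicate 2).

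The *Kat2a* KO libraries had fewer listed peaks, and less sequence under them, than the *Kat2a* WT libraries. Peaks covered 26.8 and 28.9 Mb in WT and 20.7 and 24.7 Mb in KO, a mean of 27.8 ± 1.49 against 22.7 ± 2.78 Mb (SD, n = 2 each), and the genotypes did not overlap. The share of peaks at promoters was 48.1 and 49.0% in WT and 54.1 and 53.5% in KO, again without overlap. With 2 libraries against 2 the smallest p that an exact permutation test can give is 0.333, which both measures reached (two-sided, Benjamini-Hochberg adjusted over 4 measures 0.667). When the 27657 most significant peaks of each list were used, covered length was still lower in KO (24.9 and 27.5 against 20.7 and 24.3 Mb), but the promoter shares overlapped (54.6 and 53.3% against 54.1 and 54.8%).

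Peak width did not separate the genotypes at the median. Median peak widths were 512 and 631 bp in WT and 519 and 605 bp in KO (exact permutation p = 1, two-sided). Peaks of 5 kb or more numbered 64 and 131 in WT and 21 and 65 in KO, a mean of 97.5 ± 47.4 against 43 ± 31.1 (SD, n = 2), with overlapping libraries and an exact permutation p of 0.667 (adjusted 0.889). The widest single peak measured 19998 and 20098 bp in WT and 10583 and 16243 bp in KO.

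Consensus regions lay mostly at promoters in both genotypes. A region was called promoter when it overlapped the promoter of any annotated gene, gene body when it lay otherwise within a gene, and intergenic elsewhere. In WT, 13343 regions (62.2%) were at promoters, 5156 (24.0%) in gene bodies and 2959 (13.8%) intergenic. In KO there were 12849 (68.4%), 3838 (20.4%) and 2096 (11.2%). The promoter numbers were thus close, whereas gene bodies and intergenic sequence held fewer KO regions.

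Regions were narrow in general, with a tail of wide domains. WT regions had a median width of 1058 bp (quartiles 668 and 1671 bp), and KO regions 1009 bp (652 and 1550 bp). By position, the WT medians were 1311 bp at promoters, 757 bp in gene bodies and 764 bp between genes, against 1170, 713 and 739 bp in KO. The 99th percentile was 4779 bp in WT and 4262 bp in KO. In all, consensus regions covered 28.2 Mb in WT and 23.0 Mb in KO.

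Regions of 1 genotype that lacked any peak in both libraries of the other were more frequent in WT. Of the 21458 WT regions, 1747 (8.14%, 95% Wilson interval 7.78 to 8.51%) had no KO peak, and of the 18783 KO regions, 316 (1.68%, 1.51 to 1.88%) had no WT peak. These percentages are also the background against which counts of genes are read below. The intervals cover the counting of regions only. A further 3104 WT regions (14.5%) and 1142 KO regions (6.08%) had a peak in 1 library of the other genotype, and 16607 (77.4%) and 17325 (92.2%) had one in both.

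These regions were unevenly spread by position. Among WT promoter regions 373 (2.80%) had no KO peak, against 896 gene body regions (17.4%) and 478 intergenic regions (16.2%). Among KO regions the numbers were 100 (0.778%) at promoters, 162 (4.22%) in gene bodies and 54 (2.58%) between genes. WT regions without a KO peak lay a median of 9.54 kb from the nearest coding start site when in gene bodies and 21.5 kb when intergenic. Shared WT regions of these classes lay at 9.27 and 19.0 kb.

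These regions were weak and narrow. Fold enrichment is the ratio of reads to the local background that the peak caller reported, and the smaller of the 2 replicate values was taken for each region. Its median was 2.83 for WT regions without a KO peak and 6.66 for those with a peak in both KO libraries, and 2.93 and 5.93 for the corresponding KO regions. Median widths were 508 bp without and 1280 bp with a KO peak, and 450 and 1072 bp in KO. A value of at least 4 in both replicates was found in 72 of the 1747 WT regions and in 9 of the 316 KO regions.

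The same comparison between single libraries shows how much of this the replicates share. Of the peaks of WT replicate 1, 27.3% overlapped no peak of WT replicate 2, against 40.3% for KO replicate 1 and 32.7% for KO replicate 2. Of the peaks of WT replicate 2, 26.3% overlapped none of WT replicate 1, against 37.3 and 27.3% for the KO libraries. For KO replicate 1 the shares were 22.6% against the other KO library and 21.4 and 19.8% against the WT libraries, and for KO replicate 2 they were 30.3% against 20.5 and 14.9%. WT peaks were thus missing from each KO list more often than from the other WT list, and KO peaks from each WT list less often than from the other KO list, the KO lists being the shorter ones. Leaving out a KO library raised the KO share to 9.68 (KO replicate 1) or 15.3% (KO replicate 2), next to 11.6 and 19.1% of WT regions. Leaving out a WT library gave 22.5 (WT replicate 1) or 28.1% (WT replicate 2) of WT regions and 4.07 or 5.38% of KO regions. With the same number of peaks per list the shares were 5.59% in WT and 2.50% in KO, and without chromosomes X and Y they were 8.20 and 1.70%.

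**Figure D2:**
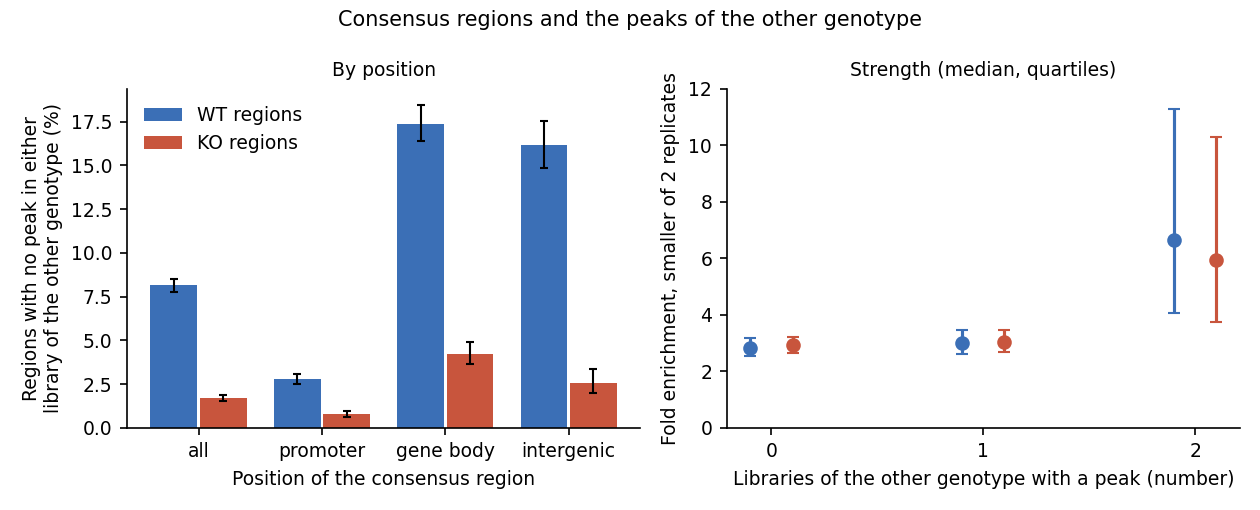
Left, share of consensus regions with no peak in either library of the other genotype, in %, by position, with 95% Wilson intervals. Right, fold enrichment (smaller of 2 replicates; points are medians, bars quartiles) by the number of libraries of the other genotype with a peak; regions with none had medians of 2.83 in WT and 2.93 in KO, and those with 2 had 6.66 and 5.93.

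The strongest WT promoter regions without a KO peak lay at genes of varied function. *Fam110c* had the highest smaller value, with fold enrichments of 6.64 and 6.94 in the WT replicates over coding and UTR sequence (chr12:31073886-31074543). *Dock9*, an activator of the small GTPase Cdc42, had 6.64 and 4.78. *Fam83h*, a gene mutated in an inherited enamel defect, had 5.27 and 4.73 over its 5′ end. *Rnft2*, which encodes a RING finger transmembrane protein, had 4.7 and 5.63, and *Srek1*, a splicing regulator, had 5.08 and 4.51. *Atp11b*, a phospholipid flippase, had 4.43 and 6.97 in a region upstream of its start site that overlapped no exon (chr3:35752809-35753712), part of which is printed above. *Tmc7*, a transmembrane channel-like gene, had 5.03 and 4.29. *Wfdc17*, which encodes a small secreted protein made by macrophages, had 4.25 and 4.81, *AI429214* had 4.26 and 6.07, and the shared promoter of *Glt28d2* and *Gm37240* had 4.43 and 4.73.

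Away from promoters, the strongest WT region without a KO peak was at chr13:59242090-59242805 in the lincRNA gene *Gm34672*, with fold enrichments of 7.25 and 7.64. The next was in an intron of *Chd9*, a chromodomain helicase, with 6.04 and 6.97. The one after that is not reported here, and the next in rank covered coding and UTR sequence of *Mlana*, a melanocyte antigen gene, at 6.72 and 4.96. Among intergenic regions, chr6:51173185-51173753 had 6.97 and 7.13, and a second region on the same chromosome, chr6:51177668-51178298, had 4.85 and 6.35. The nearest coding start site to both, that of *Nfe2l3*, was 259 and 255 kb away. A region 6.98 kb from *Vipr1* (chr9:121675145-121676237), the gene of a receptor for vasoactive intestinal peptide, had 5.12 and 5.61.

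The strongest KO promoter regions without a WT peak included Y-linked genes. *Kdm5d*, a histone H3K4 demethylase gene, had fold enrichments of 6.14 and 6.66 in the KO replicates, and *Eif2s3y*, a translation initiation factor gene, had 4.54 and 9.62. On autosomes, *Slc22a23*, a solute carrier, had 4.81 and 4.94, *Arhgef25*, a guanine nucleotide exchange factor, had 4.65 and 5.07, and *Zdhhc23*, a palmitoyltransferase, had 4.54 and 5.68. The promoter shared by the histone genes *Hist2h2aa1* and *Hist2h3c1* also had 4.54 and 5.68, but reads of these genes can be split among near-identical copies. In introns, *Stim2*, a calcium sensor of the endoplasmic reticulum, had 4.10 and 5.02, *Gfod1* had 4.03 and 4.16, and *Myh9*, a nonmuscle myosin, had 3.95 and 4.73. The strongest intergenic KO regions lay 127 kb from *Irf2bp2* (3.51 and 4.53) and 79.5 kb from *Kif2a* (4.01 and 3.50). By chromosome, the share of KO regions without a WT peak was highest on Y, at 3 of 4 regions, and on chromosome 4, at 40 regions or 3.34%. Under a stricter rule that also allowed no peak of the other genotype within 1 kb, 11 of the 16 named WT regions and 8 of the 11 named KO regions were still without one.

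Counted by gene, differences at promoters were few. Of 11318 protein-coding genes with a WT consensus region at a promoter, 304 (2.69%) had a region there without a KO peak, and 140 (1.24%) had no KO peak at any of their promoters. Of 10984 such genes in KO, 86 (0.783%) had a region without a WT peak and 41 (0.373%) had no WT peak at any promoter. The gene lists below are read against these shares.

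Genes of translation and of the Kat2a complexes carried peaks in both genotypes. All 29 SAGA and ATAC subunit genes, which encode the complexes that hold Kat2a, and all 78 mitochondrial ribosomal protein genes had a promoter peak in all 4 libraries. Cytosolic ribosomal protein genes had one at 81 and 80 of 84 in WT and 80 and 80 in KO. At 2 of the 80 with a WT consensus region (2.5%, against 2.69% of all genes) a WT region had no KO peak. These were *Rpl27* and *Rps15*, and both also had a KO peak at a promoter. Of 68 translation factor genes, 63 and 63 had one in WT and 64 and 63 in KO, and the single gene of this list with a KO region that had no WT peak was *Eif2s3y*.

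The leukemia and myeloid regulators differed little in whether a peak was present. All 28 myeloid transcription factor genes had a promoter peak in every library. At 2 of the 12 myeloid markers (16.7%, against 2.69% of all genes) a WT region had no KO peak. These were *Fcgr3* and *Prtn3*, and both also had a KO peak at a promoter. At none of the 10 markers with a KO consensus region did a KO region lack a WT peak. Of 25 MLL-AF9 program genes, 25 and 23 had one in WT and 24 and 23 in KO. Of these, *Sox4* had a peak in replicate 1 of each genotype (5.45 and 5.34), and *Hoxa5* in WT replicate 1 alone (3.22). Of 24 stem and progenitor factor genes, 20 and 19 had a peak in WT and 19 and 20 in KO.

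Developmental transcription factor genes, of the Hox, Nkx and related families, had more promoter peaks in the WT libraries. Of 193 genes, 61 and 49 had a promoter peak in WT and 47 and 44 in KO, so that WT replicate 2 and KO replicate 1 lay close together. A consensus region was present at 48 in WT and 36 in KO. At 5 of the 48 (10.4%, against 2.69% of all genes) a WT region had no KO peak, and at none of the 36 did a KO region lack a WT peak. *Hoxb3* had 2.93 and 4.29 in WT, *Hoxb7* had 3.36 and 2.39, and *Nkx6-1* had 3.29 and 3.09, with no KO peak at the promoter of any of them. *Six4* was another of the 5. Such low values lie near those of all WT regions without a KO peak.

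Further lists were drawn up after the regions had been seen, from genes that recurred among them, and are a description with no weight as evidence of direction. Of 39 erythroid program genes, 20 and 17 had a promoter peak in WT and 27 and 31 in KO. At 9 of the 25 with a KO consensus region (36%) a KO region had no WT peak, and 6 had no WT peak at any promoter. *Slc4a1*, the anion exchanger band 3, had strongest values of 4.54 and 5.19 in KO, *Tspan33*, a tetraspanin of erythroid progenitors, 4.47 and 4.68, and *Trim58*, which acts in enucleation, 3.47 and 4.94. *Ank1*, the ankyrin of the red cell skeleton, had 2.33 and 3.92. *Cldn13* had 3.47 and 3.71, and *Tmcc2* had 2.53 and 3.71. *Epor*, the erythropoietin receptor, had promoter peaks of 2.67 and 3.29 in KO and none in WT, but no KO consensus region at its promoter. *Alas2*, *Kel* and *Hemgn* had a peak in KO replicate 2 alone. The erythroid markers given above numbered 3 in replicate 1 of both genotypes, against 1 and 5 in replicate 2 of WT and KO. The part of admixed erythroid cells in these counts was not tested.

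Genes of mature myeloid cells made another list of the same kind. Over all genes, 2.69% in WT and 0.783% in KO had a promoter region without a peak of the other genotype. Both lists were drawn from such regions, which fixed their high shares in part. Of 39 monocyte and granulocyte genes, 31 and 32 had a promoter peak in WT and 28 and 29 in KO. At 10 of 30 (33.3%) a WT region had no KO peak, but most of these genes had shared peaks as well, and 3 had no KO peak at any promoter: *Il1b*, the cytokine interleukin-1β, with 2.79 and 4.06, *Kynu*, an enzyme of tryptophan breakdown, with 3.01 and 3.28, and *Prg3*, an eosinophil granule protein, with 2.89 and 2.33. *S100a9*, a granulocyte calcium-binding protein, had a WT region without a KO peak upstream of its start site (3.02 and 3.72 in WT), printed above, next to promoter peaks of 7.29 and 7.63 in WT and 4.54 and 9.62 in KO. A KO region had no WT peak at 2 of 26 genes (7.69%), *Cx3cr1* and *Ccl4*. The latter, a chemokine, had KO peaks alone (2.85 and 2.37). Of 49 interferon-induced genes, 37 and 36 had a peak in WT and 31 and 31 in KO. *Ifi207* (2.66 and 5.40), *Ifit1* (3.22 and 1.87) and *Trim30d* (2.82 and 3.84) had WT peaks and none in KO, but several interferon genes stand in clusters of similar copies, among which reads can be split. At the 30 regions of this list with a peak in all 4 libraries, the median log2 difference (KO minus WT) was 0.14 in fold enrichment, 21 above and 9 below 0, and 0.17 in width, 19 above and 11 below, next to 0.03 and 0.04 over all regions.

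**Figure D3:**
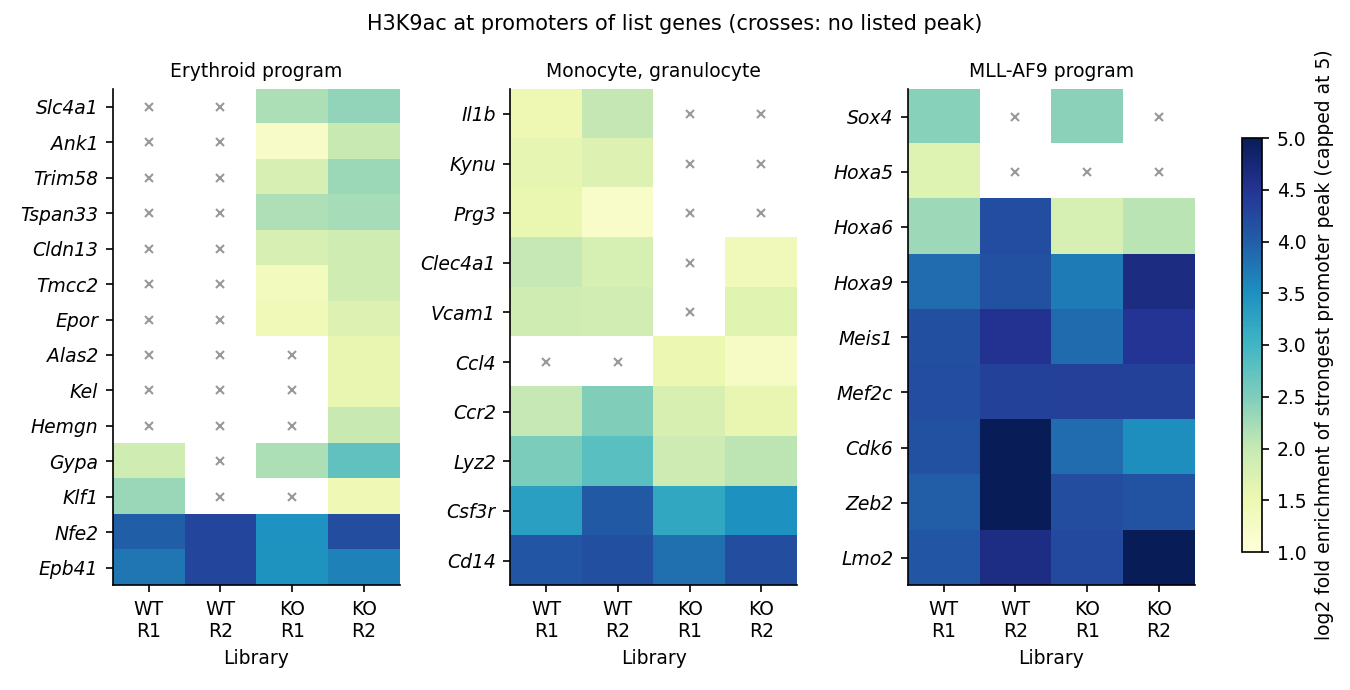
log2 fold enrichment of the strongest peak at the promoters of selected genes in each of the 4 libraries; crosses mark no listed peak and colors are capped at 5. Erythroid genes such as *Slc4a1* had crosses in both WT libraries, *Il1b*, *Kynu* and *Prg3* in both KO libraries, and most MLL-AF9 program genes were filled in all 4; the first 2 lists were chosen after seeing the data.

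DNA sequence and other histone marks differed between these promoters and shared ones. In the 300 bp around the summit, WT promoter regions without a KO peak had a median GC content of 54.3% and 9 CG dinucleotides, and those with a peak in both KO libraries 64.3% and 23. At least 10 CG were present in 49.3% of the former and 85.7% of the latter. KO promoter regions without a WT peak were alike in this, with 56.3% GC and 10.5 CG against 64.3% and 22. The Ets-type sequence CCGGAAG, searched on both strands, was present in 3.49% of WT promoter windows without a KO peak and 8.59% with 2, and in 8.15% of all WT promoter windows. The GATA-type sequence AGATAA was present in 10.2, 4.30 and 4.65% of these sets. An IRF-type motif (TTTC and TTTC with any 2 bases between them) was present in 6.70, 2.47 and 2.72%. Among the 100 KO promoter windows without a WT peak, AGATAA was present in 1%, against 4.44% of all KO promoter windows. The PU.1-type sequence GAGGAAG, which the *S100a9* window holds, was present in 15.5, 12.6 and 12.8% of the WT sets, and the E-box CACGTG in 6.43, 5.59 and 5.67%. The sets also differ in GC content, and the part of GC in these shares was not tested.

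H3K4me3, which marks active start sites, was listed at fewer of these promoters. Of the 373 WT promoter regions without a KO H3K9ac peak, 48.3 and 17.2% overlapped an H3K4me3 peak of the WT libraries and 24.4 and 31.1% one of the KO libraries, so the genotypes overlapped. At shared WT promoter regions 94.7 and 84.0% did so with WT libraries and 89.2 and 91.5% with KO libraries. H3K27ac peaks, compared in replicate 2 of each genotype and so without a replicate check, overlapped 19.6% in WT and 36.2% in KO of the 373 promoters, the opposite direction to H3K9ac, but the KO share was also higher at shared promoters (83.9 and 94.2%). At the 100 KO promoter regions without a WT peak, H3K27ac overlapped 11% in WT and 44% in KO, and H3K4me3 overlapped 28 and 13% in WT and 22 and 34% in KO.

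Wide H3K9ac domains were described next. At 5 kb or more there were 181 WT consensus regions (0.844%) and 88 KO regions (0.469%), of which 164 and 86 lay at promoters. In WT, 9 regions reached 10 kb, and in KO 4 did. Without WT replicate 2 there were 64 WT regions against the 88 of KO, but the 64 were peaks of 1 library and the 88 were merged from 2. Single libraries of the same number gave 64 in WT against 21 in KO (replicate 1) and 131 against 65 (replicate 2). Without KO replicate 2 the KO count was 21. Of the WT wide regions, 79 (43.6%) overlapped a KO wide region, and all 181 overlapped a KO consensus region of some width. Of the KO wide regions, 78 (88.6%) overlapped a WT wide region. WT wide regions were a median of 1.26 times as wide as the widest KO region they overlapped (quartiles 1.07 and 1.73), and KO wide regions 0.958 times as wide as their WT counterpart (0.871 and 1.02). Wide regions lay at promoters of 171 protein-coding genes in WT and 86 in KO, 74 of them in both.

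Genes of the MLL-AF9 program were frequent among them. Of 25 program genes, 15 (60%) had a wide WT region at the promoter and 10 (40%) a wide KO region, against 0.779 and 0.392% of all protein-coding genes. Consensus regions of any width lay at promoters of 24 program genes in WT and 23 in KO. Of all 21938 protein-coding genes, only 11318 and 10984 had one. *Cdk6*, a cell cycle kinase, *Mef2c*, *Zeb2* and *Runx2*, transcription factors, and *Hoxa9* and *Meis1* were wide in both. *Arid1b*, *Cdkn2c*, *Jmjd1c*, *Lmo2*, *Hoxa6* and *Hoxa10* were wide in WT alone by this width limit. *Lmo2* measured 5008 bp in WT and 4999 bp in KO, on either side of the limit, with 1 piece in every library. *Runx1* was wide in KO alone (5174 bp, against 3974 bp for its widest WT region). Myeloid transcription factors gave 5 of 28 in WT (*Cebpb*, *Fos*, *Gfi1*, *Junb* and *Rara*) and 1 in KO (*Rara*), and stem and progenitor factors 7 of 24 and 5. No cytosolic ribosomal protein, translation factor or SAGA and ATAC subunit gene had a wide region in either genotype, and 1 of 78 mitochondrial ribosomal protein genes, *Mrps18b*, had one in WT.

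WT wide regions were in more pieces in KO than KO wide regions were in WT. A piece is a separate listed peak of a library inside the region. Of the 181 WT wide regions, 135 (74.6%, 95% Wilson interval 67.8 to 80.4%) held at least 2 pieces in both KO libraries, and 58 at least 3. Of the 88 KO wide regions, 23 (26.1%, 18.1 to 36.2%) held at least 2 pieces in both WT libraries, and 3 at least 3. A consensus region is as wide as the merged peaks of its own genotype, which fixes part of this difference, so the pieces in the own libraries are given as well.

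The replicates of a genotype also differed in pieces. At the WT wide regions, 70.7 and 35.9% were in at least 2 pieces in WT replicates 1 and 2, and 90.1 and 78.5% in KO replicates 1 and 2. At the KO wide regions 53.4 and 40.9% were in pieces in the WT libraries and 76.1 and 37.5% in the KO libraries. At the WT wide regions WT replicate 1 thus lay nearer to KO replicate 2 than to its own replicate, and KO replicate 1 had the most pieces in both sets. Of the 30 WT wide regions that were a single peak in both WT libraries, 12 were in pieces in both KO libraries and 7 were single in both. Of the 16 KO wide regions single in both KO libraries, 3 were in pieces in both WT libraries and 7 were single in both. Without WT replicate 2, which has 131 peaks of 5 kb or more, 34 of 64 WT regions (53.1%) were in pieces in both KO libraries. Among KO regions, 47 of 88 (53.4%) were then in pieces in WT replicate 1, the only WT library left. These shares were level, but the first asked for pieces in 2 libraries and the second in 1. With replicate number 1 alone, 51 of 64 WT regions (79.7%) and 7 of 21 KO regions (33.3%) were in pieces in the other genotype.

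**Figure D4:**
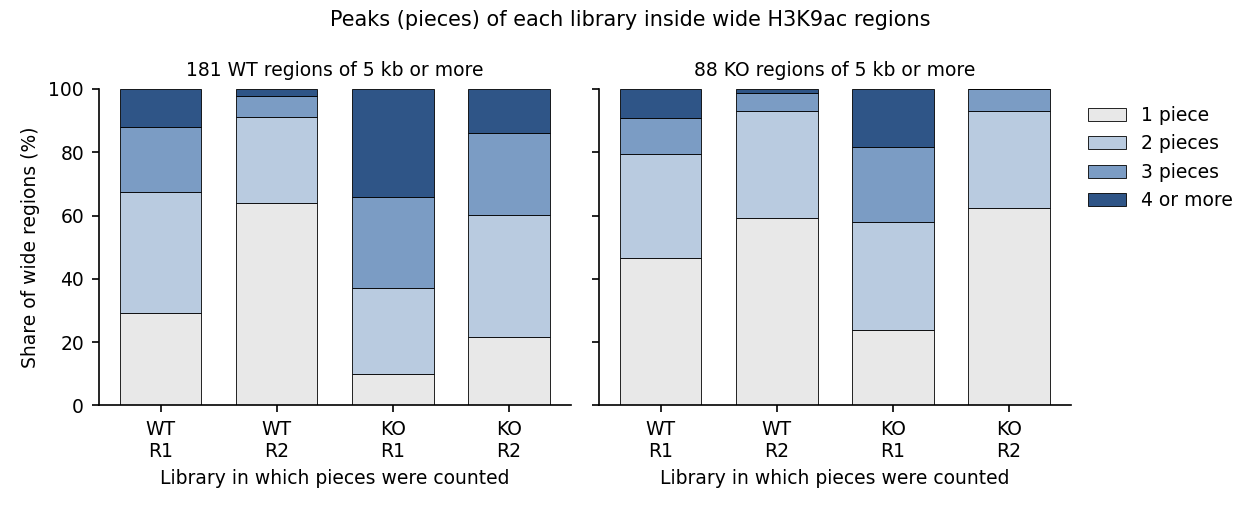
Share of wide consensus regions, in %, that held 1, 2, 3 or at least 4 separate peaks of each library, for the 181 WT regions (left) and the 88 KO regions (right). KO replicate 1 had the fewest unbroken regions in both panels, and WT replicate 2 and KO replicate 2 had the most in WT and KO regions.

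Gaps between pieces were short. In the WT wide regions there were 221 and 86 gaps in WT, of median 164 and 116 bp, and 383 and 258 in KO, of median 194 and 153 bp. Gaps of at most 500 bp made up 87.8 and 98.8% in WT and 80.9 and 90.3% in KO. The median share of a WT wide region under peaks was 92.9 and 98.6% in WT and 79.7 and 90.8% in KO. The widest single piece spanned a median of 72.0 and 97.8% in WT and 48.7 and 71.2% in KO. When peaks up to 500 bp apart were joined before merging, 113 of 400 WT wide regions (28.3%) and 20 of 273 KO wide regions (7.33%) were in pieces in both libraries of the other genotype.

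The widest WT region spanned *Hoxa7*, *Hoxa9* and *Hoxa10*, the posterior homeobox genes central to MLL-AF9 leukemia, over 20098 bp (chr6:52215127-52235224). It was 1 peak in each WT library, of 19998 and 20098 bp, and 6 and 2 peaks in KO, the widest of 8005 and 16243 bp. Peaks covered 18678 and 19838 bp of it in KO, so most of the domain was listed as acetylated there too. The next region to it, over *Hoxa6* and *Hoxa3*, measured 6708 bp in WT, and the widest KO region it overlapped 3732 bp.

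*Meis1*, the homeobox cofactor of Hoxa9, carried the second widest WT region, 15456 bp (chr11:19006896-19022351). It held 2 and 1 pieces in WT and 4 and 3 in KO, with widest peaks of 10012 and 15456 bp against 10583 and 9089 bp. The widest piece of KO replicate 1 was thus no narrower than that of WT replicate 1. *Baz2b*, a bromodomain gene, had a region of 13958 bp (chr2:60111038-60124995) with 1 and 2 pieces in WT and 4 and 3 in KO. *Zfp36*, which encodes an mRNA decay factor, had 12851 bp (chr7:28373918-28386768) with 2 and 1 against 3 and 2. *Erg*, a stem cell transcription factor gene, had 12411 bp (chr16:95450456-95462866) with 6 and 2 against 5 and 3, where the replicates of WT differed more than the genotypes. *Akap13*, an anchor protein for protein kinase A, had 12333 bp within its gene body (chr7:75578225-75590557) with 5 and 3 against 6 and 7.

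**Figure D5:**
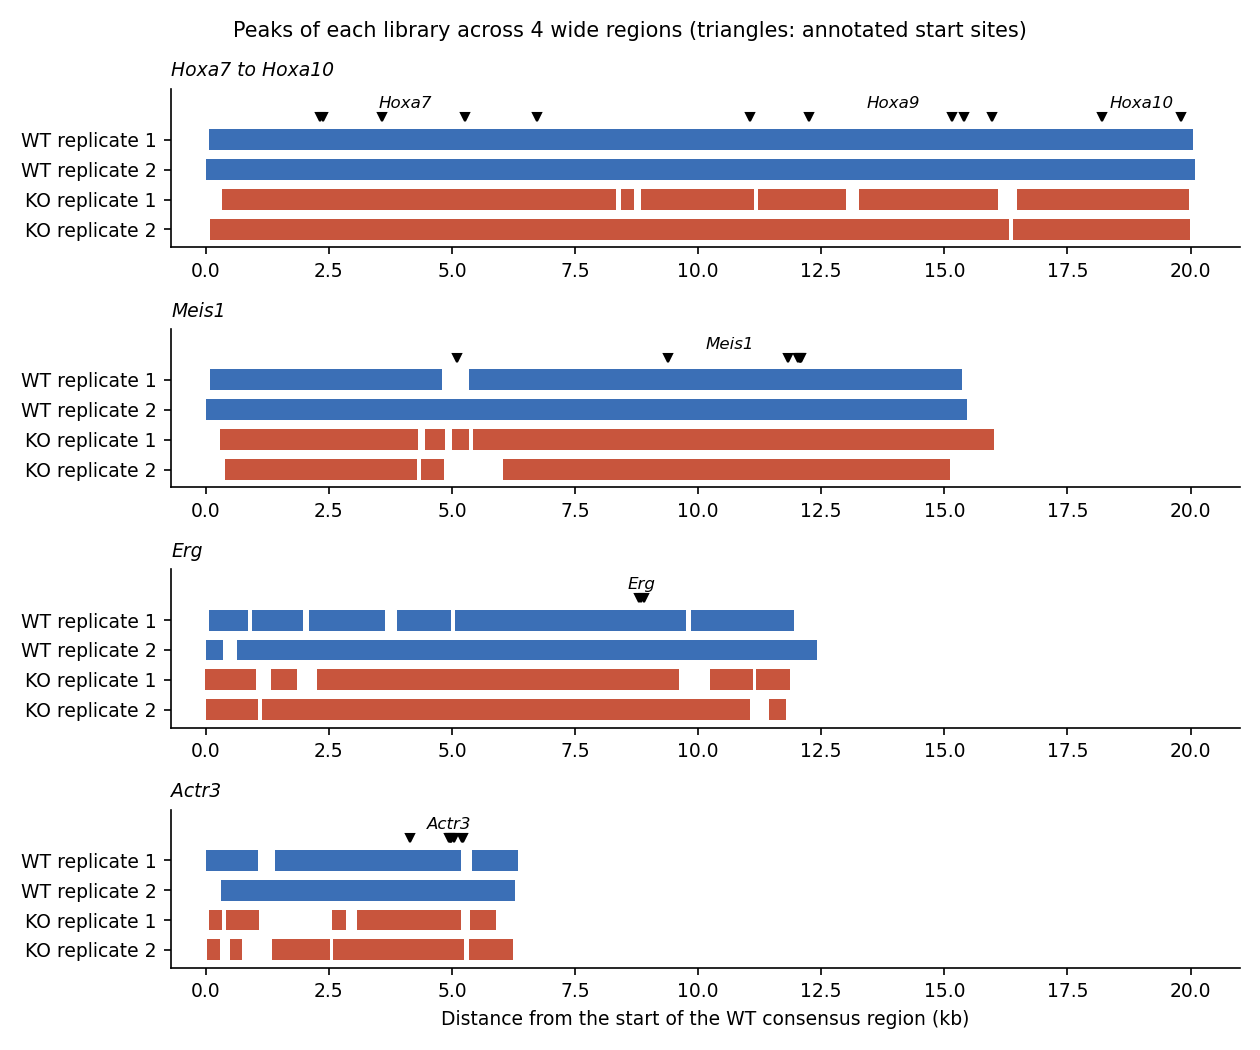
Listed peaks of each library (bars) across 4 WT wide regions, by distance in kb from the start of the region; triangles are annotated start sites. The *Hoxa7* to *Hoxa10* region was 1 bar in both WT libraries and 6 and 2 bars in KO, whereas *Erg* was broken up in WT replicate 1 as well (6 bars).

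With *Akap13*, the WT wide regions with the most pieces in KO were as follows. *Dcun1d1*, a neddylation factor gene, measured 6991 bp with 3 and 1 pieces in WT and 5 and 6 in KO. *Actr3*, a subunit of the actin-nucleating Arp2/3 complex, measured 6331 bp with 3 and 1 against 5 and 5. A region over the lincRNA genes *A630001O12Rik* and *Gm31718* measured 6551 bp with 4 and 1 against 6 and 5. A region over *Xpc*, a DNA repair gene, and *Tmem43* measured 6405 bp with 3 and 2 against 4 and 6, and *Lncppara* 7382 bp with 3 and 2 against 4 and 4. At *Zc3h12c*, the widest KO region that overlapped the WT region of 6078 bp measured 1236 bp, and at *Ikzf1*, the gene of the lymphoid regulator Ikaros, 2274 bp against 5001 bp; both were chosen after their values were seen.

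KO wide regions were found mostly at the same places. The widest lay over *Hoxa7* and *Hoxa9* (16243 bp, 1 and 1 pieces in WT, 5 and 1 in KO), *Zfp36* (12004 bp, 2 and 1, 2 and 2), *Meis1* (10806 bp, 2 and 2, 1 and 2) and the noncoding *Neat1* locus (10169 bp, 1 and 2, 1 and 1). The KO regions with the most pieces in WT were those of *Fmnl1*, a formin of blood cells (8874 bp, 4 and 3 in WT, 4 and 2 in KO), *Akna* (6846 bp, 5 and 3, 4 and 2) and *Tnfrsf1a*, a TNF receptor (5355 bp, 4 and 3, 2 and 1). In all of these a library of KO was also in more than 1 piece.

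Where every library had a peak, strength and width were compared by region. Merging all 4 lists gave 43976 regions, of which 16292 had a peak of each library, 11931 of them at promoters. For each, the highest fold enrichment and the summed width of the peaks of a library were put on the log2 scale, centered on the median of the library, and tested with limma. Before centering, library medians of fold enrichment were 7.64 and 8.46 for WT against 6.60 and 8.43 for KO, and those of width 1125 and 1194 bp against 930 and 1087 bp.

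No region passed an adjusted p of 0.05 in either fit (limma, Benjamini-Hochberg over 16292 regions; 0% called). At an unadjusted p under 0.05, fold enrichment was higher in KO at 332 regions (2.04%) and lower at 241 (1.48%), and width was higher at 245 (1.5%) and lower at 516 (3.17%). With no centering, width was higher at 82 and lower at 1071, and the median of all regions shifted to -0.16 (log2, KO minus WT) from 0.04, so the directions below are relative to the library median. On simulated data of this size, limma called 94% of regions changed by 2 on the log2 scale for fold enrichment but 0.5% of those changed by 1, and 65.5 and 0% for width, so changes of a log2 unit were not detectable.

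For fold enrichment, the promoters with the smallest p were led by *Dnajc28*, a J-domain protein gene, with 3.4 and 3.66 in WT and 7.57 and 11.9 in KO (log2 difference 1.54 ± 0.39, SE, limma adjusted p = 1.00). Its genotypes did not overlap. *Ccdc186*, a gene of dense-core vesicle biology, had 11.0 and 8.58 in WT and 23.8 and 19.99 in KO (1.27 ± 0.40). *Gabbr1*, a subunit of the GABA-B receptor, *Tmem161a*, *Pycrl*, an enzyme of proline synthesis, and *Agbl5*, a tubulin-modifying peptidase, were also higher in both KO libraries, by 1.29 to 1.33. In the other direction, *Nek6*, a mitotic kinase, had 5.80 and 8.31 in WT and 2.13 and 2.73 in KO (-1.42 ± 0.39). *Polg*, the catalytic subunit of the mitochondrial DNA polymerase, had 14.7 and 15.02 against 6.60 and 4.49 (-1.34 ± 0.40). *Tent4a*, a poly(A) polymerase, *Abcd4*, *Syncrip*, an RNA-binding protein, and *Specc1* were lower by -1.27 to -1.20. The smallest limma adjusted p of this fit was 1.00.

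For width, the smallest p was at *Hdc*, the enzyme that makes histamine, with 292 and 257 bp of peak in WT and 825 and 1103 bp in KO (log2 difference 2.01 ± 0.20, SE, limma adjusted p = 0.558). *Tal1*, a transcription factor of stem cells and erythroid and mast lineages, had 653 and 554 bp in WT and 1775 and 2058 bp in KO (1.87 ± 0.20). *P2ry14*, a nucleotide-sugar receptor of progenitors, had 1291 and 1310 bp against 3753 and 3111 bp (1.60 ± 0.23). *Fitm1*, *Nfyc*, a subunit of NF-Y, and *Hk1*, a hexokinase, were wider in both KO libraries as well. Narrower in both KO libraries were *Hebp2*, a heme-binding protein gene, with 1033 and 952 bp in WT and 241 and 307 bp in KO (-1.66 ± 0.18), and *Peli3*, *Rhod*, *Gchfr* and *Tep1*. All of these had an adjusted p of 0.558 except *Hk1* (0.743), so none passed the threshold. The promoters ranked first in the fits, 12 in each, kept their direction in every alternative that measured them. They were picked for the smallest p in the same libraries, so the kept direction is no independent check.

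At shared regions, the gene lists were counted in the same way, at promoter regions only. Over all 11931 promoter regions, 247 were higher and 184 lower in fold enrichment at an unadjusted limma p under 0.05. In width, 135 were wider and 244 narrower. Among 33 regions at MLL-AF9 program genes, 1 was higher and 0 lower in fold enrichment at an unadjusted p under 0.05, with a median log2 difference of -0.02 against 0.03 over all regions, and 0 were wider and 3 narrower. Among these 3 were *Arid1b*, a chromatin remodeler subunit (7074 and 7919 bp in WT, 3908 and 4795 bp in KO) and *Jmjd1c* (3912 and 3008 bp against 1856 and 1446 bp). Among 36 regions at myeloid transcription factor genes, 1 was wider (*Nr4a1*) and 1 narrower, the latter at *Irf8*, which drives monocyte development, with 3003 and 2363 bp against 451 and 1023 bp (-1.77 ± 0.38, limma adjusted p = 0.840). Of 33 stem and progenitor factor regions, 3 were wider and 1 narrower. For 40 SAGA and ATAC subunit regions the numbers were 1 and 2, and for 87 ribosomal protein regions 0 and 0. At 13 myeloid marker regions the median log2 difference in fold enrichment was -0.16, with 3 above and 10 below 0. In width it was 0.08, with 7 above and 6 below. In fold enrichment, *Gata2*, a stem cell factor gene, had 5.25 and 3.62 in WT and 8.12 and 7.64 in KO, and *Cdk6* had 17.7 and 31.8 against 14.4 and 11.5; neither passed after adjustment. The median width difference was -0.22 for 28 regions at monocyte and granulocyte genes, with 10 above and 18 below 0. It was 0.18 for 20 regions at erythroid program genes, with 15 above and 5 below, next to 0.04 over all regions. In fold enrichment, the monocyte and granulocyte median was -0.01, with 14 above and 14 below 0. The erythroid median was 0.09, with 13 above and 7 below, next to 0.03 over all regions. These lists were chosen after seeing the data.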

How the data were processed

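Per the labels and the study's methods, the authors used BWA for alignment to mm10, then MACS2 for each library; versions, and which input served each library as control, are not given in the sources used here. The methods state a q-value of 0.05, which 89.1 to 96.1% of the peaks in the deposited H3K9ac lists met. Each deposited list gives the position of every peak, a score, the fold enrichment over local background (a ratio) and the −log10 p-value and q-value. Replicates were not pooled, and the lists hold no read counts. Of these values, positions and fold enrichment were used throughout; the −log10 p and q-values the authors gave served for the alternatives with q at most 0.05 and with 27657 peaks per list, and the deposited score column was not used for any result. H3K4me3, H3K27ac and H3K4me1 lists were used for overlap only, with replicate 1 of the last 2 marks left out: the study dropped a replicate of each without naming it, and almost no peak in the replicate 1 lists reached the q-value limit.

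Peaks were merged when they shared at least 1 bp and were annotated with GENCODE M21 on GRCm38.p6, with sequence read from that assembly. Shares carry 95% Wilson intervals, which cover counting error only. Library measures were compared by two-sided exact permutation tests, and log2 values at shared regions with limma 3.58.1 (R 4.3.3) with no covariates. The same steps were tested on simulated data, and interval operations were checked with bedtools 2.31.1. Regions named in the text without a peak in the other genotype were the highest ranked by the smaller replicate fold enrichment, wide regions those with the greatest width or the most pieces, and promoters of the fits those with the smallest p in each direction; 1 ranked gene body region and 1 ranked promoter are not reported here. The members and gene lists were chosen with earlier results of these data known, and the erythroid program, interferon-induced and monocyte and granulocyte lists after the regions had been seen. Alternatives covered the peak threshold, overlap, joining of gaps, width, promoter definition, normalization, the replicate block and leaving out each library.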

Additional observations from a re-analysis of the deposited data

How the results depend on the processing

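WT lay above KO in 9 of 11 alternatives for the number of consensus regions, 12 of 13 for regions of 5 kb or more, 10 of 12 for regions without a peak in the other genotype, 14 of 14 for genes with such a region at a promoter, and 13 of 14 for wide regions in pieces. Where a single library stands for a genotype its whole list is used, which by construction raises the number of consensus regions; regions of 5 kb or more were then fewer.

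Leaving out 1 library at a time gave 21458 to 33605 consensus regions in WT and 18783 to 28861 in KO, 64 to 181 and 21 to 88 of 5 kb or more, 2499 to 9439 and 764 to 4228 without a peak in the other genotype, 496 to 1360 and 197 to 472 genes, and 34 to 163 and 1 to 47 wide regions in pieces. The difference in median peak width, -9.5 bp, turned to 50 bp without WT replicate 2 and 33.5 bp without KO replicate 1; it was -69 bp without WT replicate 1 and -52.5 bp without KO replicate 2, and never passed the test.

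With replicate number 1 alone there were 33605 WT consensus regions, 64 and 21 wide ones in WT and KO, 13534 and 5918 without a peak in the other genotype, 2208 and 678 genes, and 51 and 7 wide regions in pieces. With replicate number 2 alone there were 28861 KO regions, 8642 and 4301 without a peak in the other, and 1172 and 907 genes. With the same number of peaks per list, 1075 WT regions had no KO peak. A limit of 3 kb gave 1102 and 679 wide regions, 485 and 113 in pieces, and one of 10 kb gave 9 and 4, with 8 and 1. Joining gaps of up to 500 bp gave 400 and 273 wide regions, requiring at least 3 pieces gave 58 and 3, and an overlap of 50% gave 14 KO regions in pieces. With the outermost start site of each gene, 185 and 48 genes were left. A pair of alternatives was added after seeing the data: leaving out chromosomes X and Y, and allowing no peak of the other genotype within 1 kb, which gave 167 KO regions and 171 and 51 genes.

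Replicate numbers were shared between the genotypes, and deviations at shared regions correlated at 0.151 for fold enrichment and 0.235 for width, with 2 pairs. The labels do not say what a replicate number shares, so the pairing is unknown and the fit without it was kept. With the replicate number as a block, the differences of the library measures were -9.5 bp, -54.5 peaks, -5.13 Mb and 5.28 percentage points, with exact permutation p-values of 1, 0.5, 0.5 and 0.5, the last being the smallest that 2 pairs allow. The block gave 0 regions in either limma fit, with 485 higher and 363 lower at an unadjusted p under 0.05 for fold enrichment and 346 and 706 for width. Every other alternative of the 2 fits gave 0 as well. All 119 and 118 values of the ranked promoters had the direction reported, but these promoters were picked from the same libraries, so this is no independent check. Depth could not be read from the lists, and weak regions are those it limits most.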
